A study of Mus musculus with 6 samples.

Results

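Creatine kinase, adenylate kinase and AMP deaminase genes were read in the gastrocnemius, the large calf muscle, of Tmem182 knockout and wild-type mice. The 9 genes were chosen by symbol and not by a cut on their values, though earlier results of these data were known. They were Ckm, Ckmt2 and Ckb (creatine kinases), Ak1 (adenylate kinase), Ampd1 and Ampd3 (AMP deaminases), Slc6a8 (creatine transporter), and Gamt and Gatm (creatine synthesis). Each matched 1 row in all 6 tables of 19458 genes. The knockout group was 3 libraries whose genotype field gives tmem182-/-, and the wild-type group was 3 libraries. Both groups were C57BL/6 mice 9 weeks old, with no treatment named. The comparison asks whether loss of Tmem182, which encodes a membrane protein of striated muscle, goes with a difference in these transcripts. The labels do not say how the allele was made or whether each library was 1 mouse, so p-values measure the spread between these libraries, which may be technical in part. The source labels of knockout libraries 2 and 3 name tmem183 and tmem184, against the genotype field, and the extraction text speaks of cultured muscle cells where the tissue field gives skeletal muscle.

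Muscle holds ATP steady during contraction by moving phosphate between creatine and ATP. Cytosolic creatine kinase recharges ATP beside the myofibrils, and the sarcomeric mitochondrial enzyme charges creatine where ATP is made. When ATP use outruns this buffer, adenylate kinase makes ATP and AMP from ADP, and AMP deaminase turns AMP into IMP, which pulls that reaction forward. Creatine itself is made mostly outside muscle, by Gatm and then Gamt, and enters fibres through the transporter Slc6a8. Fast glycolytic fibres are known for high cytosolic creatine kinase and AMP deaminase, and oxidative fibres for more mitochondrial creatine kinase.

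The promoters of the 3 creatine kinase genes are shown because these genes encode the same reaction at very different levels in this muscle. The sequences are RefSeq windows on GRCm38.p6, from 250 bases before the transcript start to 50 bases from it on. Ckm is at chr7:19410844-19411143 (plus strand), Ckmt2 at chr13:91876836-91877135 (minus strand) and Ckb at chr12:111672289-111672588 (minus strand). Capitals mark CAGCTG, an E-box read by myogenic factors, and the MEF2 motif, which in Ckb contains the other motif searched, TATAAA.
Ckm: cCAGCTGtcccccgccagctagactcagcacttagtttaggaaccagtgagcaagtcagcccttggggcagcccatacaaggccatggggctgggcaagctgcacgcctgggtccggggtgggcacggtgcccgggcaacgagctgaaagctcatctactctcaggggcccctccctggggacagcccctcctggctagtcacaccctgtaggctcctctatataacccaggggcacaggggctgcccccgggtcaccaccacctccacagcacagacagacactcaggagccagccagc
Ckmt2: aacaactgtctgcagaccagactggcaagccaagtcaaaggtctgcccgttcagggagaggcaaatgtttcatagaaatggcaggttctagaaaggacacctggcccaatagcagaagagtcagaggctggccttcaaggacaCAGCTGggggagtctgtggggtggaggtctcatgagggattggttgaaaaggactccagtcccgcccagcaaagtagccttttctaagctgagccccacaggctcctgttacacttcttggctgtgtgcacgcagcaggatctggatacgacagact
Ckb: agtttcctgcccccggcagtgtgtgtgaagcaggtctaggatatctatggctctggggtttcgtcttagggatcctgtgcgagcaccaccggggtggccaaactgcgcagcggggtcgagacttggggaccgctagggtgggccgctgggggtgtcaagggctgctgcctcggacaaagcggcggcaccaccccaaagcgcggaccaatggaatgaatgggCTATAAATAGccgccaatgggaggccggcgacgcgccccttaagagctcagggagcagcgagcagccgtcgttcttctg
CAGCTG began 249 bases upstream of the start in Ckm and 107 bases upstream in Ckmt2, and these letters were not in the Ckb window. Ckb held the MEF2 motif from 29 bases upstream, with TATAAA from 28 bases upstream. On both strands CAGCTG was in 16.3% of 32851 windows of this length, TATAAA in 13.6% and the MEF2 motif in 0.56%. A match in letters is a description of the sequence and not a binding site. Of the other genes, Ak1 had CAGCTG in 2 of its windows and TATAAA in 1, and Ampd3, Gamt and Gatm had none of the motifs in theirs. Windows were found for 7 of the 9 genes, 12 in all.

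Total expected counts per library, the estimated reads per gene summed, ran from 16212341 to 17986755 in the knockout and from 17617775 to 18672630 in wild type. Tmem182 was at 6.23, 4.30 and 2.17 FPKM (fragments per kilobase of transcript, scaled to depth) in knockout libraries 1, 2 and 3, against 147.5, 121.4 and 121.0 FPKM in wild-type libraries 1, 2 and 3. All 10 fast fibre markers were detected in each library, which marks fast muscle RNA but does not tell gastrocnemius from another fast muscle or from differentiated cultures. Knockout library 1 stood apart: its chi-square per degree of freedom against the other knockout libraries was 93.0 and 122.3, against 13.6 between those 2 and 12.9 to 49.9 between wild-type libraries. Fold changes of the 9 genes are therefore given with and without it, and those of pathway genes where leaving out a library moved them most.

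Ckm, the muscle creatine kinase of the cytosol, was among the 4 genes with the highest FPKM in every library. It had 12708, 18922 and 18691 FPKM in knockout libraries 1, 2 and 3, against 17303, 21532 and 19407 FPKM in wild-type libraries 1, 2 and 3. Knockout library 1 was the lowest and wild-type library 2 the highest, and the other 4 lay between 17303 and 19407 FPKM, so the groups overlapped. The mean was 16774 ± 3523 FPKM for knockout libraries and 19414 ± 2115 FPKM for wild-type ones (SD, n = 3 each). On the log2 scale the fold change was -0.25 (SE 0.31, 95% interval -0.96 to 0.47, edgeR adjusted p = 0.994), and it was -0.012 without knockout library 1. On GRCm38 the gene spans bases 19404776 to 19422841 of chromosome 7, plus strand, with 10 exonic blocks. The antisense gene A930016O22Rik overlaps it, and how strand was handled was not given in the sources used here.

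Ckmt2, the sarcomeric mitochondrial creatine kinase, varied most among the creatine kinases. It had 1071, 437 and 336 FPKM in the knockout libraries, against 584, 218 and 457 FPKM in the wild-type libraries. Knockout library 1 was the highest of all 6 and wild-type library 2 the lowest, and knockout libraries 2 and 3 lay inside the wild-type range. The mean was 615 ± 398 FPKM for knockout libraries and 419 ± 186 FPKM for wild-type ones (SD, n = 3 each). Knockout over wild type, edgeR put the log2 fold change at 0.42 (SE 0.42, 95% interval -0.56 to 1.41, edgeR adjusted p = 0.994), and it changed sign to -0.069 without knockout library 1 and to -0.038 with limma-voom library weights. Ckmt2 spans bases 91853387 to 91876885 of chromosome 13 on the minus strand, and the antisense gene 1700119I11Rik overlaps it.

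Ckb, the brain-type creatine kinase of the cytosol, was near the bottom of the range. It had 7.11, 4.36 and 4.04 FPKM in the knockout libraries, from 169, 115 and 106 expected counts, against 6.12, 3.03 and 4.03 FPKM in the wild-type libraries, from 158, 83 and 107 counts. Library 1 was the highest within each genotype, and wild-type library 1 lay above knockout libraries 2 and 3, so the groups overlapped. Wild-type libraries 2 and 3 lay below all 3 knockout libraries, library 3 by a margin within the Poisson interval of its count, 87.7 to 129.3. Its fold change on the log2 scale was 0.15 (SE 0.25, 95% interval -0.42 to 0.73, edgeR adjusted p = 0.994), and it was -0.011 leaving out knockout library 1 and -0.042 leaving out wild-type library 2. Ckb spans bases 111669361 to 111672338 of chromosome 12 on the minus strand, with no overlapping gene annotated.

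**Figure D1:**
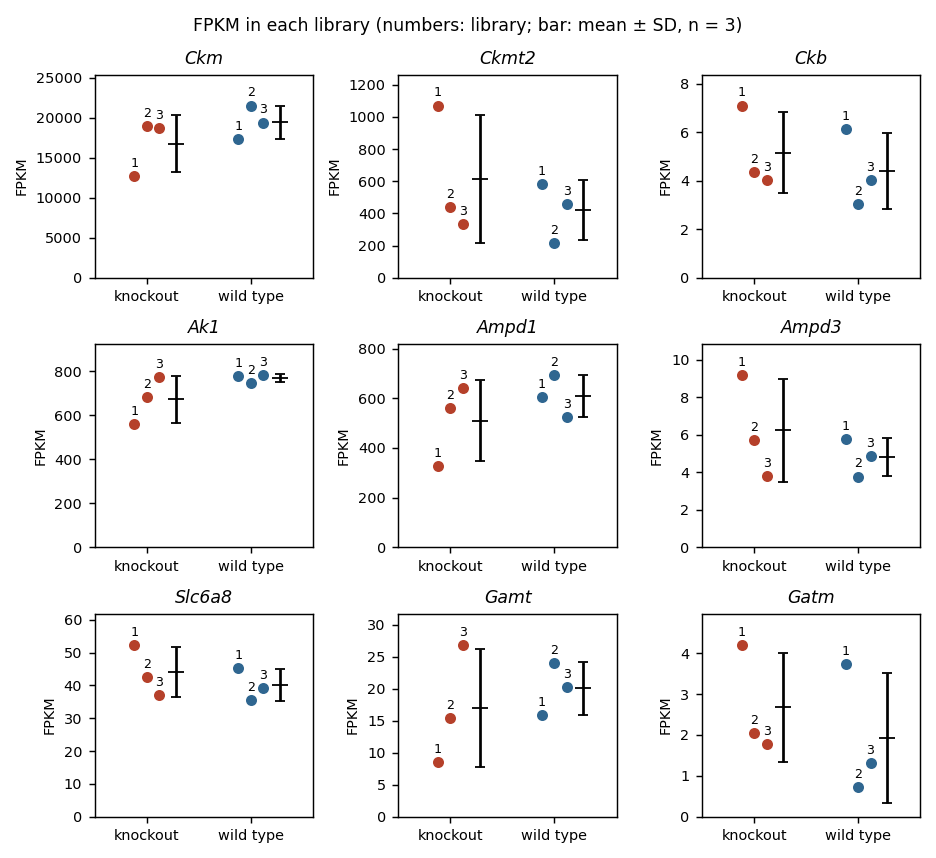
FPKM (vertical axis, from 0, scaled per gene) of the 9 genes in the 3 knockout libraries (red, left) and 3 wild-type libraries (blue, right), numbered by library, with black bars for the mean ± SD. Knockout library 1 is the highest point for 5 genes and the lowest for 4, and the groups overlap in all 9 panels.

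FPKM is scaled by length, so the creatine kinases can be set against each other within a library. Ckmt2 made up 7.77%, 2.26% and 1.77% of the summed FPKM of the 3 creatine kinase genes in the knockout libraries, against 3.26%, 1.002% and 2.30% in the wild-type libraries. Ckb made up at most 0.052% in any library, and Ckm at least 92.2%. Knockout library 1 thus had the largest mitochondrial share and wild-type library 2 the smallest, while knockout libraries 2 and 3 lay between wild-type libraries 1 and 2. The log2 ratio of Ckmt2 to Ckm averaged -4.93 ± 1.196 for knockout libraries and -5.64 ± 0.89 for wild-type ones (SD, n = 3 each), a difference of 0.71 (two-sided exact permutation p = 0.6). That difference was 0.025 without knockout library 1. The log2 ratio of Ckb to Ckm averaged -11.7 ± 0.77 for knockout libraries and -12.2 ± 0.67 for wild-type ones, a difference of 0.48 (two-sided exact permutation p = 0.4), or 0.035 without knockout library 1. For the 3 ratios tested, the third being that of the AMP deaminases, each exact permutation p adjusted over the 3 was 0.6, and 0.1 is the smallest p that 3 against 3 libraries allow.

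**Figure D2:**
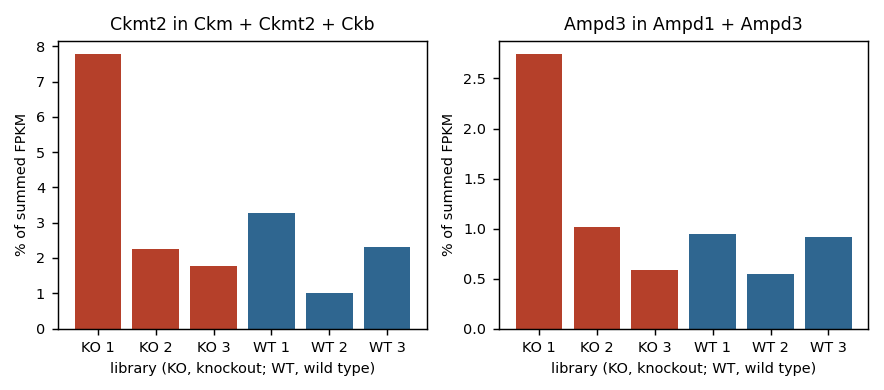
Share of summed FPKM (%, axes from 0) taken by Ckmt2 among the 3 creatine kinase genes (left) and by Ampd3 among Ampd1 and Ampd3 (right), 1 bar per library, with knockout in red and wild type in blue. Knockout library 1 has the tallest bar in both panels, 7.77% and 2.74%, and wild-type library 2 the shortest, 1.002% and 0.54%.

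Ak1, the cytosolic adenylate kinase of muscle, was even among wild-type libraries and uneven among knockout libraries. It had 559, 683 and 776 FPKM in the knockout libraries, against 777, 748 and 783 FPKM in the wild-type libraries. Knockout libraries 1 and 2 lay below every wild-type library, and knockout library 3 lay within their range. The mean was 672 ± 109 FPKM for knockout libraries and 769.6 ± 18.9 FPKM for wild-type ones (SD, n = 3 each). On the log2 scale the fold change was -0.24 (SE 0.21, 95% interval -0.73 to 0.26, edgeR adjusted p = 0.994), and -0.039 without knockout library 1. Of the 9 genes Ak1 had the smallest unadjusted p in edgeR, 0.304. It spans bases 32621758 to 32635058 of chromosome 2 on the plus strand, and 4 of its 6 expected counts were not whole, as where reads are shared out among genes.

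Ampd1, the AMP deaminase of skeletal muscle, came next below Ak1 in mean FPKM in wild type. It had 326, 562 and 643 FPKM in the knockout libraries, against 605, 693 and 526 FPKM in the wild-type libraries. Only knockout library 1 lay below the wild-type range, and knockout libraries 2 and 3 lay inside it. Knockout over wild type, edgeR put the log2 fold change at -0.25 (SE 0.31, 95% interval -0.98 to 0.47, edgeR adjusted p = 0.994), and it changed sign to 0.046 without knockout library 1. Ampd1 spans bases 103074014 to 103099720 of chromosome 3 on the plus strand, and 2 non-coding genes on the same strand overlap it.

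Ampd3, the AMP deaminase known from red cells, had between 0.54% and 2.82% of the FPKM of Ampd1 in the same library. It had 9.18, 5.74 and 3.78 FPKM in the knockout libraries, against 5.77, 3.77 and 4.87 FPKM in the wild-type libraries. Knockout library 1 exceeded all wild-type libraries, and knockout libraries 2 and 3 lay within their range. Its fold change on the log2 scale was 0.26 (SE 0.25, 95% interval -0.31 to 0.84, edgeR adjusted p = 0.994), and 0.013 without knockout library 1. Ampd3 took 2.74%, 1.01% and 0.58% of the summed FPKM of both deaminases in the knockout libraries, against 0.94%, 0.54% and 0.92% in the wild-type libraries. The log2 ratio of Ampd3 to Ampd1 averaged -6.39 ± 1.15 for knockout libraries and -7.00 ± 0.46 for wild-type ones (SD, n = 3 each), a difference of 0.61 (two-sided exact permutation p = 0.4), which changed sign to -0.015 without knockout library 1. Ampd3 spans bases 110768206 to 110812405 of chromosome 7 on the plus strand and overlaps the protein-coding gene Rnf141 on the other strand, and its expected counts were not whole in any of the 6 libraries. Red cell markers, the globins and Alas2, summed to 1895, 445 and 686 FPKM in the knockout libraries, against 794, 1100.2 and 969.5 FPKM in the wild-type libraries, with all 5 highest in knockout library 1 and none at 0. Their part in the Ampd3 values was not tested.

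Slc6a8, which carries creatine into the fibre, varied least of the creatine supply genes. It had 52.5, 42.7 and 37.2 FPKM in the knockout libraries, against 45.4, 35.7 and 39.3 FPKM in the wild-type libraries. By FPKM knockout library 1 was the highest, and the other 2 knockout libraries lay inside the wild-type range. FPKM does not carry the TMM scaling of the edgeR fit, whose factor was 1.19 for knockout library 1 and 0.933 to 1.04 for the others. The order by FPKM need not hold after that scaling. On the log2 scale the fold change was 0.063 (SE 0.11, 95% interval -0.19 to 0.32, edgeR adjusted p = 0.994), the narrowest interval of the 9 genes, and it was 0.037 leaving out knockout library 1 and -0.0022 leaving out wild-type library 2. That interval allows a level between 0.874 and 1.25 times that of wild type. Slc6a8 lies on the X chromosome from 73673150 to 73682502 on the plus strand, and 4 of its 6 expected counts were not whole.

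The genes of the synthesis steps were low, and knockout library 1 stood at opposite ends of their ranges. Gatm, the amidinotransferase that makes guanidinoacetate, had 4.21, 2.05 and 1.78 FPKM in the knockout libraries, against 3.73, 0.73 and 1.31 FPKM in the wild-type libraries. Expected counts of Gatm were 161, 87 and 75 in the knockout libraries, against 155, 32 and 56 in the wild-type libraries, and the exact Poisson 95% interval of the lowest, 21.9 to 45.2, covers counting error only. Both libraries numbered 1 lay above the other 4. Gamt, the methyltransferase that completes creatine, had 8.56, 15.4 and 26.9 FPKM in the knockout libraries, against 15.9, 24.0 and 20.3 FPKM in the wild-type libraries. The knockout libraries held both its lowest and its highest value. The log2 fold changes were 0.40 (SE 0.52, 95% interval -0.82 to 1.62) for Gatm and -0.26 (SE 0.44, 95% interval -1.27 to 0.76) for Gamt, each with an edgeR adjusted p of 0.994. Without knockout library 1 they were 0.068 for Gatm and 0.12 for Gamt, a change of sign for Gamt. Gatm was at 0.019 leaving out wild-type library 2 and 1.23 leaving out wild-type library 1, and Gamt at -0.84 leaving out knockout library 3. Gatm lies on chromosome 2 from 122594467 to 122611303 and Gamt on chromosome 10 from 80258151 to 80261012, both on the minus strand with no overlapping gene.

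By mean FPKM the order in the knockout was Ckm, Ak1, Ckmt2, Ampd1, Slc6a8, Gamt, Ampd3, Ckb and Gatm. In wild type it was Ckm, Ak1, Ampd1, Ckmt2, Slc6a8, Gamt, Ampd3, Ckb and Gatm. Neighbours with overlapping ranges in the knockout were Ak1 and Ckmt2, Ckmt2 and Ampd1, Gamt and Ampd3, Ampd3 and Ckb, and Ckb and Gatm. In wild type they were Ampd1 and Ckmt2, Ampd3 and Ckb, and Ckb and Gatm. Ckmt2 exceeded Ampd1 in 1 of 3 knockout libraries, library 1, and in no wild-type library.

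All 9 genes passed the filter on low counts, and 0 of 9 passed edgeR's quasi-likelihood test at an adjusted p of 0.05, against a background of 0.00783% of the 12774 genes tested. At an unadjusted p under 0.05 the count was also 0 of 9, against 3.55% of all genes. DESeq2 called 0 of 9 as well, where it called 0.0343% of all genes. FPKM values of the groups overlapped for all 9, where they did not overlap for 7.55% of the genes tested. Log2 fold changes were above 0 for 5 genes and below 0 for 4, with a median of 0.063, against 0.0046 over all genes tested. A p that misses the threshold does not show equal levels: the 95% intervals allow a Ckm level between 0.512 and 1.38 times that of wild type and a Ckmt2 level between 0.678 and 2.66 times. In 8 of the 9 genes the highest wild-type library exceeded the lowest by a larger ratio than the one between group means, Ak1 being the exception. A range of 3 single values tends to exceed a difference between means, and the share over all genes was not computed. This count therefore describes the spread and does not set these genes or Ak1 apart.

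**Figure D3:**
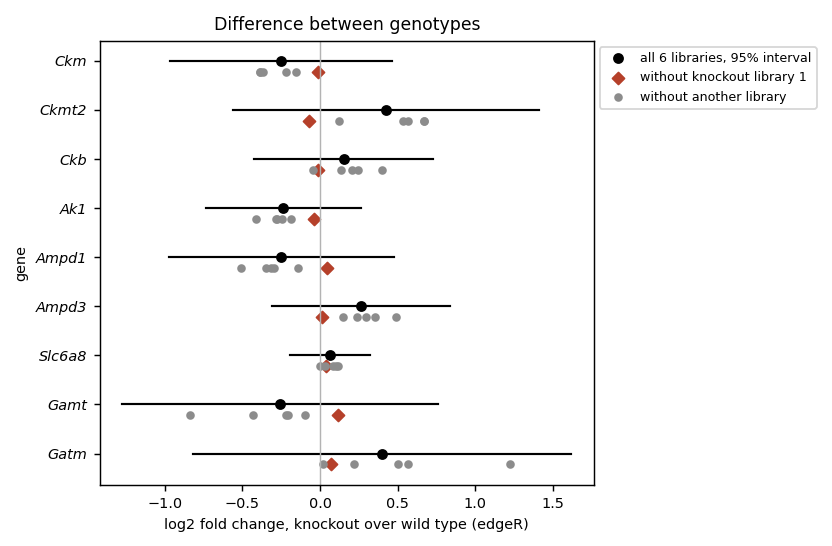
Log2 fold change, knockout over wild type, from edgeR for each of the 9 genes: black points with 95% intervals use all 6 libraries, red diamonds leave out knockout library 1 and grey points leave out each other library. All 9 intervals include 0, and the red diamonds lie between -0.069 and 0.12.

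Across the 9 genes the extremes fell in the same few libraries. How often these libraries held the extremes over all genes was not computed, so the counts cannot set the 9 genes apart from others. Knockout library 1 held the highest FPKM of Ckmt2, Ckb, Ampd3, Slc6a8 and Gatm, and the lowest of Ckm, Ak1, Ampd1 and Gamt. Wild-type library 2 held the lowest of those same 5 genes and the highest of Ckm and Ampd1. These are extremes of FPKM without the TMM scaling of the edgeR fit, which can change the order where libraries lie close, as for Slc6a8. The ratio of the highest to the lowest library was 5.77 for Gatm, 4.92 for Ckmt2 and 3.14 for Gamt, but 1.40 for Ak1 and 1.47 for Slc6a8. The median of this ratio was 1.46 over 10324 tested genes with a mean of at least 1 FPKM and no value of 0, and 98.4%, 97.9% and 95% of them had a smaller ratio than Gatm, Ckmt2 and Gamt. Ak1 and Slc6a8 sat near the middle, with 42.5% and 50.7% of genes below them.

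Fibre markers also differed between libraries. The 10 slow fibre markers summed to 2637, 1719 and 110.5 FPKM in the knockout libraries, against 802.5, 75.0 and 641 FPKM in the wild-type libraries. All 10 had their highest level in knockout library 1, all 10 had a higher mean in the knockout, and none was at 0 in any library. Myh7, which encodes slow myosin, had 277, 196 and 1.34 FPKM in the knockout libraries, against 76.5, 5.71 and 71.6 FPKM in the wild-type libraries, and Tnnt1, the slow troponin T, had 342, 245 and 5.67 FPKM, against 99.5, 8.66 and 86.9 FPKM. The 10 fast fibre markers summed to between 65169.5 and 96063 FPKM across knockout libraries and between 85745 and 97117 FPKM across wild-type ones, with the lowest sum in knockout library 1. Of these, Myh4, the myosin of the fastest fibres, had 6876, 13689 and 14156 FPKM in the knockout libraries, against 11905, 11622 and 14396 FPKM in the wild-type libraries. Myh2, the myosin of fast oxidative fibres, had 1453, 376 and 163 FPKM in the knockout libraries, against 440, 28.2 and 368 FPKM in the wild-type libraries. In bulk tissue, fewer cells of a type and less RNA per cell cannot be told apart.

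Ckmt2 and the slow fibre sum shared their highest library, knockout library 1, and their lowest, wild-type library 2, but did not run in 1 order. Knockout library 2 had the second highest slow fibre sum, 1719 FPKM, with 437 FPKM of Ckmt2, less than wild-type libraries 1 and 3. Ckmt2 in the 6 libraries kept the order of Myh2 except for knockout library 2 and wild-type library 3, at 376 and 368 FPKM of Myh2. With the mean log2 level of the slow fibre markers as a covariate, log2 fold changes were 0.20 for Ckmt2, 0.23 for Gatm, 0.063 for Ampd3, 0.055 for Ckb and 0.021 for Slc6a8. They were -0.17 for Ckm, -0.19 for Ak1, -0.15 for Ampd1 and -0.14 for Gamt. All 9 were nearer 0 than without the covariate, each with an edgeR adjusted p of 0.999. That covariate was 7.65, 7.22 and 2.87 in knockout libraries 1, 2 and 3, against 6.09, 2.90 and 5.91 in the wild-type libraries. It was thus highest in knockout library 1 but nearly as high in knockout library 2. The parts of slow fibres and of knockout library 1 in these fold changes were not tested. Other markers were high in knockout library 1 as well: endothelial markers summed to 52.1 to 128.8 FPKM across knockout libraries and 52.6 to 92.7 FPKM across wild-type ones, and Schwann cell and myelin markers to 49.5 to 307 FPKM across knockout libraries and 19.8 to 202 FPKM across wild-type ones. All 5 markers of each of these 2 lists had a higher mean in the knockout, were highest in knockout library 1 and were at 0 in no library. Smooth muscle, adipocyte, macrophage and fibroblast markers were highest in that library for 4, 5, 5 and 4 of 5 genes. Their summed levels were 60.9 to 105.8, 88.9 to 217.5, 5.60 to 17.1 and 165 to 326 FPKM in the knockout, against 59.4 to 84.2, 77.0 to 147, 5.54 to 7.61 and 133 to 313 FPKM in wild type, with none at 0. The part of these cell types in the values of Ckb, Ampd3, Slc6a8 and Gatm was not tested.

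**Figure D4:**
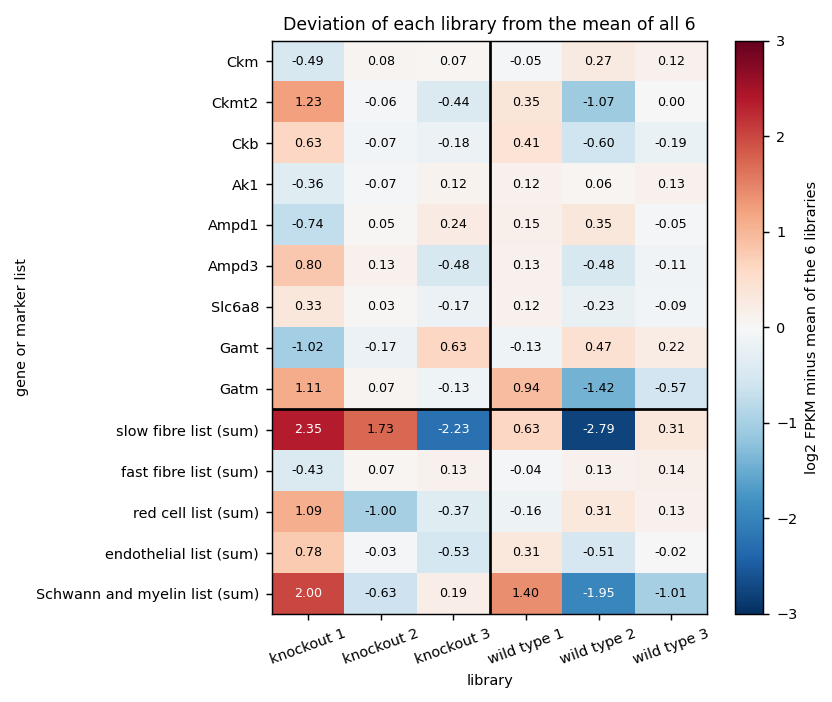
Log2 FPKM of each gene, and of the summed markers of 5 lists below the line, in each library (columns, knockout left of wild type) minus the mean of the 6 libraries, as colour and number. The column of knockout library 1 has the largest departures for most genes, from -1.02 for Gamt to 1.23 for Ckmt2, and wild-type library 2 departs the other way for Ckmt2 (-1.07) and Gatm (-1.42).

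For 4 of the genes, the other genes with the most similar profile were found as those with the highest Pearson r of log2 depth-scaled counts over the 6 libraries, among 10328 genes with a mean of at least 1 FPKM. These values describe 6 libraries of both genotypes that share their depth scaling, so they are no measure of a link. Ckm ran most like Zdhhc4 (0.996), Ints14 (0.995) and Rnf8 (0.994). Ckmt2 ran most like Postn, the matrix protein periostin (0.9996), Uqcrq, a subunit of respiratory complex III (0.998), and Ech1, a dienoyl-CoA isomerase (0.998). Postn had 4.07, 1.12 and 0.79 FPKM in the knockout libraries, against 1.77, 0.36 and 1.28 FPKM in the wild-type libraries, and Uqcrq had 137, 91.8 and 84.8 FPKM, against 106.7, 74.3 and 92.3 FPKM. Both thus shared the library order of Ckmt2, Postn over a wider range and Uqcrq over a narrower one. Ckb ran most like Cfap20 (0.997), Zfp608 (0.997) and Cdkn1a, the cell cycle inhibitor p21 (0.995), and Ampd3 most like Nceh1 (0.997), Mavs (0.991) and Lipa (0.99), the lysosomal acid lipase.

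In 5 further lists of this pathway, 0 members passed edgeR's threshold and 0 had an unadjusted p under 0.05, against 3.55% of all genes, and DESeq2 called 0 of them too. Among other creatine, adenylate and nucleoside diphosphate kinases 7 of 11 could be tested, with 4 log2 fold changes above 0, 3 below and a median of 0.0035. Nme2, a nucleoside diphosphate kinase, had 234, 184.5 and 183 FPKM in the knockout libraries, against 175, 177 and 174 FPKM in the wild-type libraries, the only gene of the 5 lists whose groups did not overlap, where 7.55% of all genes tested did not. Its log2 fold change was 0.12 (SE 0.095, edgeR adjusted p = 0.994), or 0.074 without wild-type library 1. Nme1 had a log2 fold change of -0.10 (SE 0.14), or 0.0047 without knockout library 2. Ak5, at 0.05 to 0.32 FPKM, had one of 0.41 (SE 0.76). That of Ak5 was -0.00070 without wild-type library 3 and 1.81 without wild-type library 1.

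Of 17 genes of adenine nucleotide breakdown and salvage 16 were tested, 7 above 0 and 9 below, with a median log2 fold change of -0.089. Nt5c2, a cytosolic nucleotidase, had 3.23, 1.55 and 0.89 FPKM in the knockout libraries, against 1.42, 0.94 and 1.02 FPKM in the wild-type libraries, so knockout library 3 lay below all wild-type libraries and the other 2 above. Its log2 fold change was 0.61 (SE 0.34), and 0.17 without knockout library 1. Of the enzymes that return IMP to AMP in the purine nucleotide cycle, Adss had a log2 fold change of -0.17 (SE 0.13). It was -0.095 without wild-type library 2 and -0.24 without knockout library 2. Adsl, of the same cycle, had one of -0.11 (SE 0.10), or -0.061 without knockout library 1. Aprt, which salvages adenine, had one of -0.15 (SE 0.16), or -0.0057 without wild-type library 2.

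Subunits of the AMP-activated kinase, the sensor of AMP in muscle, had 1 log2 fold change above 0 and 6 below among 7 tested, with a median of -0.12. Prkag3, the regulatory subunit of fast muscle, had 43.7, 112.7 and 142 FPKM in the knockout libraries, against 112.5, 200.3 and 109.6 FPKM in the wild-type libraries. Knockout library 1 was again the lowest and wild-type library 2 the highest, and the log2 fold change was -0.51 (SE 0.49). It was -0.11 leaving out knockout library 1, -0.15 leaving out wild-type library 2 and -0.91 leaving out knockout library 3. The log2 fold changes of Prkab2, -0.27 (SE 0.22), and Prkaa1, 0.16 (SE 0.13), were -0.067 and 0.021 without knockout library 1. Prkag1 had one of -0.092 (SE 0.11), or -0.027 without knockout library 3.

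The list for mitochondrial ATP export, which also holds the phosphate carrier Slc25a3, had 5 of 6 log2 fold changes above 0 and a median of 0.094. Slc25a4, the muscle exchanger of ATP and ADP, had 2302, 1841 and 1786 FPKM in the knockout libraries, against 1959, 1424 and 1792 FPKM in the wild-type libraries. For Slc25a4 the log2 fold change was 0.12 (SE 0.16), or 0.015 without wild-type library 2. The related Slc25a5 had a log2 fold change of 0.28 (SE 0.29), or -0.18 without knockout library 1. Slc25a3, the phosphate carrier, had one of 0.089 (SE 0.16), which was -0.016 leaving out knockout library 1 and -0.020 leaving out wild-type library 2, and Vdac2, an outer membrane channel, one of 0.10 (SE 0.11), or 0.046 without knockout library 3. Of 7 genes that supply methyl groups 6 were tested, 4 above 0 and 2 below, with a median of 0.018. Ahcyl2 had a log2 fold change of 0.18 (SE 0.11), Mat2a one of -0.23 (SE 0.20) and Mat2b one of 0.020 (SE 0.11), which without wild-type library 2 were 0.10, -0.0011 and -0.059. Mat2a was at -0.11 leaving out knockout library 1, and Mat2b at 0.11 leaving out wild-type library 1. Gnmt had one of -0.067 (SE 0.45), which was 0.095 leaving out knockout library 3 and 0.30 leaving out wild-type library 1.

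**Figure D5:**
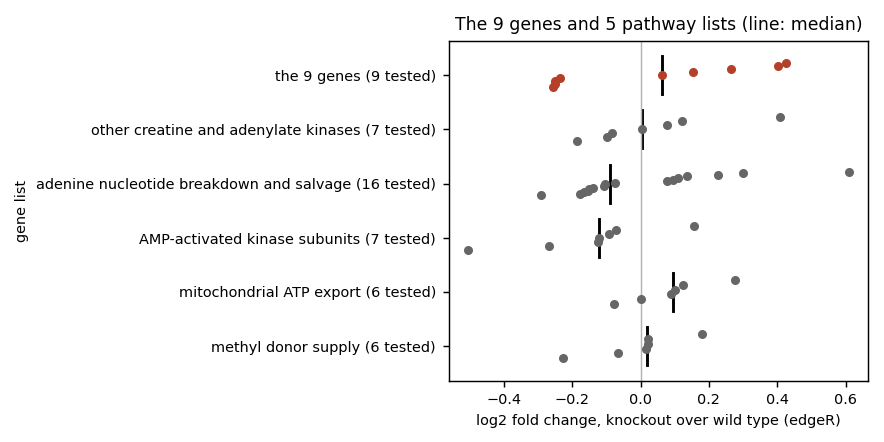
Log2 fold change, knockout over wild type, from edgeR for each tested gene (points) of the 9 genes (red) and of 5 pathway lists (grey), with a black line at each median. Medians lie between -0.12 and 0.094, against 0.0046 over all genes tested, and no point passed the adjusted threshold.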

How the data were processed

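RNA-seq of 3 knockout and 3 wild-type gastrocnemius libraries was used, grouped by the genotype label. Each deposited table lists genes with an expected count (26.2% to 27.5% of them not whole) and, per the file headers, FPKM as computed by the authors. RSEM 1.2.12, HISAT2 2.0.4 and Bowtie2 2.2.5, and the build GRCm38, are named per the submitters' processing notes, and their roles, the annotation, read filters and strand were not given in the sources used here. Of the 9 genes, Ak1, Ampd3 and Slc6a8 had counts that were not whole, as RSEM gives where reads match several genes.

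Expected counts were rounded. Genes were kept by filterByExpr at a minimum count of 10, scaled by TMM (factor 1.19 for knockout library 1, 0.933 to 1.04 for the others) and tested with edgeR 4.0.16 (R 4.3.3), quasi-likelihood, two-sided, Benjamini-Hochberg adjusted over 12774 genes at 0.05. Log2 fold changes come from this fit, SE is the absolute log2 fold change over the square root of F, and levels are FPKM as deposited. Ratios were tested by exact permutation (scipy 1.17.1). The test was also run on simulated data. Other settings tried were leaving out each library, a replicate block, no filter, DESeq2 size factors, DESeq2 1.42.0, limma 3.58.1 on log2(FPKM + 1), limma-voom with quality weights, a slow-fibre covariate and, added after the data were seen, library totals in place of TMM; ratios were also taken with 1 FPKM added and on counts.

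The genes and lists were chosen with earlier results of these data known. Named genes were the 9 genes, Tmem182, the 4 tested genes of each pathway list with the smallest p, Myh7, Tnnt1, Myh4, Myh2 and the 3 most similar profiles for 4 of the genes; 1 gene that this rule names is not reported here. Gene positions are those of GENCODE M21 (GRCm38).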

Additional observations from a re-analysis of the deposited data

How the results depend on the processing

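No alternative called any of the 9 genes or any gene of the pathway lists. Over all genes edgeR called 1, Tmem182; DESeq2 called 6 and the slow-fibre covariate 2 (Egr1 and Tmem182), leaving out a library gave 0 to 1 (0 without knockout library 2 or wild-type library 3), and the cause was not tested. With a replicate block 1 gene was called, and the smallest unadjusted edgeR p among the 9 genes was 0.102, which changed no call. The ratio differences of 0.71, 0.48 and 0.61 cannot change with that block. Their exact sign-flip p was 0.5, 0.25 and 0.5, where 0.25 is the smallest possible. Same-numbered libraries deviated from their group means with r of 0.524, 0.179 and -0.122. Knockout library 3 went most with wild-type library 2 (0.427). The labels state no pairing, and these values cannot tell whether same-numbered libraries share more than a number. Of the 9 genes, 5 changed sign when a library was left out. Log2 fold changes then ran from -0.069 to 0.67 for Ckmt2, -0.042 to 0.40 for Ckb, -0.51 to 0.046 for Ampd1, -0.0022 to 0.12 for Slc6a8 and -0.84 to 0.12 for Gamt. They ran from -0.18 to 0.49 for Slc25a5, -0.020 to 0.15 for Slc25a3, -0.37 to 0.17 for Myh4, -0.19 to 0.0047 for Nme1, -0.40 to 0.30 for Gnmt, -0.059 to 0.11 for Mat2b and -0.00070 to 1.81 for Ak5. The ratio differences ran from 0.025 to 1.14 for Ckmt2 to Ckm, 0.035 to 0.83 for Ckb to Ckm and -0.015 to 1.12 for Ampd3 to Ampd1. An unadjusted p under 0.05 appeared for Ampd3 without knockout library 3 (0.0247) and Gatm without wild-type library 1 (0.0179), at edgeR adjusted p of 0.893 and 0.978. Limma-voom quality weights gave knockout library 1 a weight of 0.294. With them Ckmt2 was at -0.038, Slc25a5 at -0.093, Slc25a3 at -0.042 and Myh7 at -0.24, each a change of sign. With the covariate Myh7 was at -0.97 and Tnnt1 at -0.24, both being part of the covariate. With limma on log2(FPKM + 1) Gnmt was at 0.029. Of the 72 values of the 9 genes under the 8 alternatives that kept all libraries, 71 kept their direction and side of the threshold. Library totals in place of TMM moved the median of all genes to 0.076. Depth limits Gatm and Ckb most.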

Other observations

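Of the pathway lists, 6 genes were too low to be tested in the main edgeR fit. Those with counts above 0 entered only fits without that filter, such as DESeq2, which called no gene of these lists. Ckmt1, the ubiquitous mitochondrial creatine kinase, was at 0.09 FPKM in knockout library 1 and 0.19 FPKM in wild-type library 2, and was listed at 0 in the other 4 libraries. Ada, adenosine deaminase, had 0.47, 0.30 and 0.23 FPKM among knockout libraries and 0.17, 0.16 and 0.23 FPKM among wild-type ones. Mat1a, the methionine adenosyltransferase of liver, reached 0.08 FPKM at most. The adenylate kinase genes Ak7 and Ak8 reached 0.08 and 0.04 FPKM at most, and Ak9 was listed at 0 in all 6 libraries.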
